A study of Mus musculus with 9 samples.

Results

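The genes described here are the 37 named genes of glutathione synthesis, peroxide removal and the NRF2 response, chosen by symbol from the 23799 genes of the deposited expression table. All 37 were found by their symbol and all passed the filter on low values, so none is left out below. They were read in 9 RNA-seq libraries of fluorescently sorted mouse tumour cells, from primary tumours and metastases of a breast cancer (BC) model and a pancreatic ductal adenocarcinoma (PDAC) model. The comparisons ask how metastatic cells differ from primary tumour cells within each model, over both models, and how the models differ from each other.

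The BC groups are GFP-sorted cells derived from 4T1-eGFP, a single mouse mammary carcinoma line that carries a green fluorescent protein, taken at 28 days. They comprise primary tumour libraries 1 and 5 and lung metastasis libraries 4 and 6. The PDAC groups are YFP-sorted cells of mice that carry p48-Cre, p53F/+ and ROSA-LSL-YFP, among other alleles shared by all PDAC groups. In these mice the p48 promoter drives Cre in the pancreatic lineage, where Cre acts on the floxed p53 allele and switches on the yellow fluorescent protein. PDAC number 1 also carries SIRT6F/F and was taken at 25.67 weeks, and it gave a primary tumour, a liver metastasis and a lung metastasis library. PDAC number 5 carries no SIRT6 allele in its label, was taken at 28.95 weeks, and gave a primary tumour and a liver metastasis library. The SIRT6 allele, the age and the number cannot be told apart. The growth protocol calls the models orthotopic, and the labels do not say whether the 4 BC libraries came from separate animals. The PDAC lung metastasis is 1 library with no replicate.

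Glutathione is a small thiol made from glutamate, cysteine and glycine, and it is the main soluble reductant of the cell. Glutathione peroxidases spend it to reduce peroxides, glutathione reductase restores it with NADPH, and the thioredoxin and peroxiredoxin system works beside it with its own reductase. The transcription factor NRF2 (gene Nfe2l2) is held low by KEAP1 and, when released by oxidants or electrophiles, switches on many of these genes through the antioxidant response element in their promoters.

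Values are RPKM (reads scaled to gene length and library depth) as the authors deposited them, and depth was estimated from their smallest steps at 21300000 to 128000000 reads on genes per library. BC lung metastasis 6, PDAC primary 5 and the PDAC lung metastasis stood apart, with 9530 to 10938 genes above 0 against 12144 to 20478 in the other 6 libraries. These 3 libraries also listed 8 or 9 members at 0, against at most 2 elsewhere. Haemoglobin genes took 10.9% of the summed RPKM in PDAC primary 1, 38.9% in PDAC liver metastasis 1, 20.045% in PDAC liver metastasis 5 and 38.6% in the PDAC lung metastasis, and at most 0.107% in the other 5 libraries. In bulk RNA, fewer cells of a type and less RNA per cell cannot be told apart. The 8 markers of tumour epithelium (Epcam, Krt8 and others) took 0.400% to 3.49% of the summed RPKM in 7 libraries but 0.0257% in PDAC liver metastasis 5 and 0.0143% in the PDAC lung metastasis, where Cdh1 was listed at 0. The 10 neutrophil markers took 21.9% in PDAC liver metastasis 5 and 0.0774% to 2.30% in the other PDAC libraries, and in BC 0.00759% and 0.00994% in primaries against 0.646% and 0.282% in lung metastases. The 10 macrophage markers took 1.16% to 1.46% in the PDAC metastases, 0.409% and 0.181% in PDAC primaries 1 and 5, and 0.0410% to 0.145% in BC. The 8 lymphocyte markers took 5.79% in PDAC primary 1. The 10 hepatocyte markers took 0.0948% and 0.218% in PDAC liver metastases 1 and 5 and 0.0522% in PDAC primary 5. In PDAC primary 5 nearly all of this was Apoa1 (245 of 248 RPKM), with Alb, Ahsg, Cps1, Cyp2e1 and Tat listed at 0. The 8 lung epithelium markers took 3.91% in the PDAC lung metastasis and at most 0.102% elsewhere. The part that these cells had in the results below was not tested.

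The antioxidant response element is the sequence through which NRF2 acts, so its core was searched in the promoters of the members. RefSeq promoter windows (build GRCm38.p6, from 250 bases before to 50 bases after each start) were available for 33 of the 37 members, and the core TGACNNNGC was sought on both strands. It was present for 10 members (30.3%), against 3781 of 27025 genes (13.99%). The members were Abcc4, G6pdx, Gclm, Ggt1, Me1, Pgd, Prdx1, Sod1, Srxn1 and Txnrd1. A match describes letters and is not a measured binding site. The 5 matches below are shown because they lie upstream of members of different roles whose values are given in the following paragraphs. Each is read 5′ to 3′ along the gene with 10 bases on either side, and capitals mark the match, which in all 5 lies on the strand opposite to the gene.
Prdx1 (chr4:116685466-116685474, plus strand gene): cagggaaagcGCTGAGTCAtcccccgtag
G6pdx (chrX:74428929-74428937, minus strand gene): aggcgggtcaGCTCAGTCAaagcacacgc
Gclm (chr3:122245423-122245431, plus strand gene): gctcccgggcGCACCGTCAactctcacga
Sod1 (chr16:90220706-90220714, plus strand gene): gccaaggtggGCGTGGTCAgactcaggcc
Txnrd1 (chr10:82859114-82859122, plus strand gene): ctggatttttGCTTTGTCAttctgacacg
Read on its own strand the match of Prdx1 is TGACTCAGC and that of G6pdx is TGACTGAGC. The wider upstream sequence is shown for Gclm and G6pdx, which were both far lower in PDAC primary 5 than in the PDAC metastases. They encode a subunit of the first enzyme of glutathione synthesis and the first enzyme of the NADPH-yielding pentose phosphate pathway. Cat (0.0122 RPKM) and Sod2 (0.184) were also far lower there, and neither had a match. Prdx1 and Sod1, each with a match, lay there within the range of the PDAC metastases. A link between match and level was not tested.
Gclm (chr3:122245307-122245556, plus strand): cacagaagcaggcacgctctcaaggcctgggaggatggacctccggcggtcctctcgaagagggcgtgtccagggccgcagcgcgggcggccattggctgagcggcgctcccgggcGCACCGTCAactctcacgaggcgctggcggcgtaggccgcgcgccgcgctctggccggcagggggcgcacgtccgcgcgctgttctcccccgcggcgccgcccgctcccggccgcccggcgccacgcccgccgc
G6pdx (chrX:74428881-74429130, minus strand): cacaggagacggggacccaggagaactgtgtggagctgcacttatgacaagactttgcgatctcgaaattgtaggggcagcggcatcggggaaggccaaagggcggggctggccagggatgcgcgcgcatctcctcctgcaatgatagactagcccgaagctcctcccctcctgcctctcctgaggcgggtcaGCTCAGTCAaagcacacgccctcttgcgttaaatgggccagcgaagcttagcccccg
In these 250 bases the match begins 134 bases before the start of Gclm and 57 bases before that of G6pdx.

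As a group the members were well expressed. Of the 37, 25 (67.57%) were above 0 in all 9 libraries, against 40.41% of the 12832 genes tested. With haemoglobin left out of the sum, they took 1.03% to 1.25% of the summed RPKM in BC primaries and lung metastasis 4, 1.60% in lung metastasis 6, 0.915% and 1.33% in the PDAC primaries, and 1.93% to 2.10% in the PDAC metastases. In percentage points of the sum, the step was widest in the 6 glutathione peroxidases, and most of it was Gpx1. They took 0.398% to 0.567% in BC primaries, BC lung metastasis 4 and the PDAC primaries, 0.754% in BC lung metastasis 6, and 1.06%, 1.27% and 1.22% in the PDAC metastases, where Gpx1 alone took 0.976%, 1.24% and 1.16%. With haemoglobin kept, the peroxidases took 0.647%, 1.02% and 0.750% in the PDAC metastases, against 0.753% in BC lung metastasis 6. Without haemoglobin the 6 peroxiredoxins showed no step of this kind, at 0.239% to 0.630% with the extremes both in PDAC liver metastases.

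**Figure D1:**
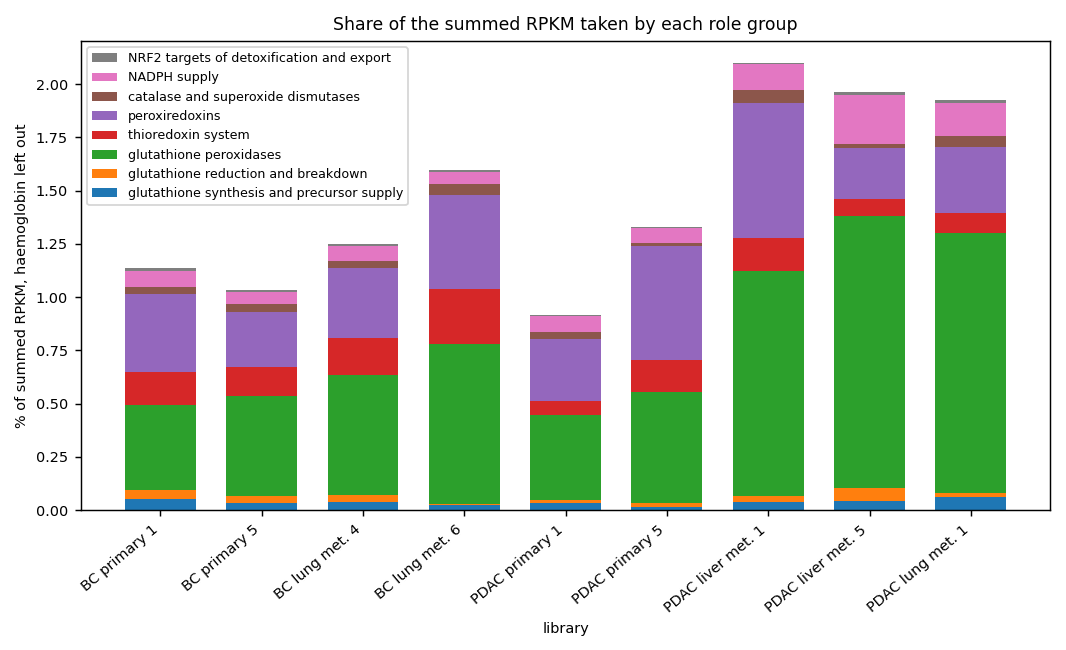
Share of the summed RPKM, with haemoglobin genes left out, taken by each of the 8 role groups (stacked bars) in each of the 9 libraries. The 3 PDAC metastasis bars are the tallest, at 1.93% to 2.10%, and the peroxidase share is 1.06% to 1.27% in them. With haemoglobin kept in the sum (not shown), the PDAC metastases were at 1.18% to 1.57%, against 1.60% in BC lung metastasis 6.

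Gpx1, the main cytosolic glutathione peroxidase, had the highest value of the 37 members in 9 of 9 libraries. Its RPKM was 1196 and 1096 in BC primaries 1 and 5 and 1796 and 3309 in BC lung metastases 4 and 6. It was 1753 and 1369 in PDAC primaries 1 and 5, 5490 and 9856 in PDAC liver metastases 1 and 5, then 6612 in that of the lung. Values of a group are given in this order of library numbers throughout. Every metastasis library was above every primary library of both models. The same order held as a share of the summed RPKM without haemoglobin, at 0.289% to 0.381% in the 4 primaries and 0.460% to 1.24% in the 5 metastases. Gpx1 was highest in the PDAC metastases, where haemoglobin took 20.045% to 38.9% of the sum. PDAC primary 1, with 10.9% haemoglobin, was below BC lung metastasis 4, with 0.0235%. Leaving haemoglobin genes out of the sum does not take out other RNA of the same cells, whose part in Gpx1 was not tested.

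The other peroxidases did not share this pattern. Gpx4, which reduces lipid hydroperoxides in membranes, had 214 and 179 RPKM in the BC primaries, 315 and 569 in BC lung metastases, 176 and 342 in PDAC primaries, 339 and 207 in the PDAC liver metastases, with 175 in the PDAC lung metastasis. It was higher in both BC metastases than in both BC primaries, and overlapped between PDAC liver metastases and primaries. The ratio of Gpx1 to Gpx4 was 4.01 to 9.99 in all BC libraries and the PDAC primaries, and 16.2, 47.6 and 37.7 in the PDAC metastases. Gpx2, the gastrointestinal epithelial peroxidase, was seen at more than traces in PDAC libraries. It was listed at 0 in both BC primaries and gave 0.0244 and 0.0201 RPKM in the BC lung metastases, against 11.5 and 665 in PDAC primaries, 12.5 and 12.4 in the PDAC liver metastases, with 0 in the PDAC lung metastasis. PDAC primary 5 alone was thus far above all other libraries. Gpx3, the secreted plasma peroxidase, was at 2.50 to 6.09 RPKM in 3 BC libraries and 50.2 in BC lung metastasis 6, and at 23.9 to 117 in the PDAC libraries. Gpx8, a peroxidase of the endoplasmic reticulum, showed the opposite order, at 75.3 to 188 in BC and 0 to 47.7 in PDAC, with no overlap. Gpx7, its close relative, stayed at or below 7.31 in all 9 libraries.

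**Figure D2:**
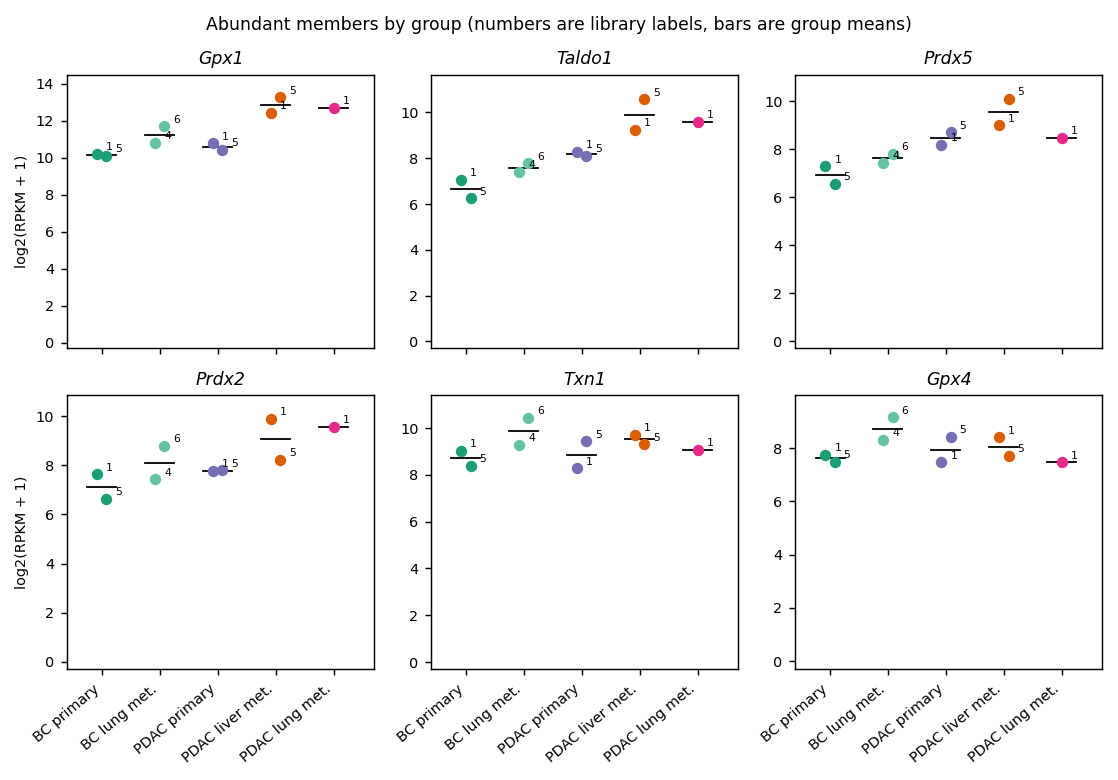
Level of 6 abundant members, log2(RPKM + 1), in each library by group; points are libraries with their label number and bars are group means. Gpx1 in the 5 metastasis libraries lies above all 4 primaries, and Taldo1 in the 5 PDAC libraries lies above all 4 BC libraries.

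Glutathione synthesis differed between its subunits. Gclc, the catalytic subunit of glutamate-cysteine ligase, had 8.72 and 7.61 RPKM in the BC primaries, 4.98 and 1.78 in BC lung metastases, 4.95 and 12.2 in PDAC primaries, 0 and 6.76 in the PDAC liver metastases, with 0.595 in the PDAC lung metastasis. It was lower in both BC metastases than in both BC primaries, and overlapped in PDAC. Gclm, the modifier subunit that raises the activity of the enzyme, was at 19.8 and 6.51 in BC primaries, 14.8 and 2.92 in BC lung metastases, 22.3 and 0.0230 in PDAC primaries, 78.3 and 101 in the PDAC liver metastases, with 79.6 in the PDAC lung metastasis. The 3 PDAC metastases were above all other libraries. The ratio of Gclc to Gclm was 0.336 to 1.17 in the BC libraries and 0 to 0.0670 in the PDAC metastases, while in PDAC primary 5, where Gclm was nearly absent, it was 532. Gss, which adds glycine in the last step, was at 3.01 to 14.8 RPKM in 8 libraries and 0.00362 in BC lung metastasis 6.

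For cysteine supply, Slc7a11, the cystine importer of system xc-, had 0.492 and 0.239 RPKM in the BC primaries, 0.213 and 0.373 in BC lung metastases, 1.92 and 1.24 in PDAC primaries, 6.57 and 58.7 in the PDAC liver metastases, with 41.9 in the PDAC lung metastasis. All PDAC libraries were above all BC libraries, and all PDAC metastases above both PDAC primaries. Its partner chain Slc3a2, which also serves other amino acid carriers, was far more abundant, at 51.6 to 216 RPKM. The ratio of Slc7a11 to Slc3a2 was 0.00186 to 0.00323 in BC, 0.0172 and 0.0240 in PDAC primaries, and 0.0591, 0.336 and 0.194 in the PDAC metastases.

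Among recycling and breakdown genes, Gsr, glutathione reductase, had 156 and 77.2 RPKM in the BC primaries, 118 and 28.2 in BC lung metastases, 73.3 and 89.7 in PDAC primaries, 162 and 479 in the PDAC liver metastases, with 89.9 in the PDAC lung metastasis. PDAC liver metastasis 5, the library rich in neutrophil markers, was the highest. Ggt1, the surface enzyme that opens glutathione outside the cell, was listed at 0 in 5 libraries and reached 11.0 in PDAC liver metastasis 5. Chac1, which degrades glutathione inside the cell, was at 5.75 to 9.95 in both BC primaries and BC lung metastasis 4, and at 0.0195 to 3.98 in the other 6 libraries.

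In the thioredoxin system, Txn1, the small protein that hands electrons to peroxiredoxins, had 518 and 336 RPKM in the BC primaries, 626 and 1392 in BC lung metastases, 309 and 687 in PDAC primaries, 845 and 631 in the PDAC liver metastases, with 536 in the PDAC lung metastasis. It was higher in both BC metastases than in both primaries, without such a separation in PDAC. Txnrd1, the cytosolic reductase of thioredoxin, was at 44.6 and 44.8 in BC primaries, 19.0 and 3.36 in BC lung metastases, 7.35 and 9.95 in PDAC primaries, 2.27 and 7.35 in the PDAC liver metastases, with 20.2 in the PDAC lung metastasis. The BC primaries were above all other libraries. Srxn1, sulfiredoxin, which repairs over-oxidised peroxiredoxins, was listed at 0 in BC lung metastasis 6 and both PDAC primaries, at 0.0278 in the PDAC lung metastasis, and at 5.13 to 30.3 in the other 5 libraries.

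Among the peroxiredoxins, Prdx1 had 626 and 301 RPKM in the BC primaries, 615 and 1137 in BC lung metastases, 644 and 1192 in PDAC primaries, 1608 and 143 in the PDAC liver metastases, with 341 in the PDAC lung metastasis. Its highest and lowest values were thus both in PDAC liver metastases. Prdx2, which is also abundant in red cells, was at 197, 99.1, 172 and 444 in BC primaries 1 and 5 and lung metastases 4 and 6, at 218 and 221 in PDAC primaries, at 946 and 297 in liver metastases and at 754 in the lung metastasis. Its highest values were in PDAC liver metastasis 1 and the lung metastasis, the libraries with the most haemoglobin. Prdx5, found in mitochondria, peroxisomes and cytosol, was at 93.1 to 221 in BC and 291 to 1102 in PDAC, with no overlap. Prdx3, the mitochondrial form, was at 29.2 to 37.4 in the 3 PDAC metastases and 51.8 to 146 in the other libraries. Prdx4, the secretory pathway form, was at 16.9 and 19.1 in PDAC liver metastasis 5 and the lung metastasis, the libraries with least epithelial marker expression, and at 61.5 to 233 elsewhere. Prdx6, which uses glutathione, was at 112 to 482.

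Catalase (Cat), which splits peroxide without a cofactor thiol, had 39.3 and 30.4 RPKM in the BC primaries, 22.7 and 19.1 in BC lung metastases, 45.6 and 0.0122 in PDAC primaries, 55.0 and 68.9 in the PDAC liver metastases, with 157 in the PDAC lung metastasis. In RPKM, BC metastases were below BC primaries, and PDAC metastases above both PDAC primaries. As a share without haemoglobin, PDAC liver metastasis 5 was at 0.00869%, below PDAC primary 1 at 0.00919%. PDAC primary 5 was also low for Sod2, the mitochondrial superoxide dismutase, at 0.184 against 21.0 to 91.6 in the other libraries. Sod1, the cytosolic form, was at 42.9 to 79.5 in 7 libraries and at 210 and 213 in BC lung metastasis 6 and PDAC liver metastasis 1.

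NADPH itself was not measured, and of the genes grouped under its supply Taldo1, transaldolase of the pentose phosphate pathway, had the highest value in each library. Its RPKM was 134 and 75.4 in BC primaries, 168 and 217 in BC lung metastases, 310 and 275 in PDAC primaries, 600 and 1526 in the PDAC liver metastases, with 768 in the PDAC lung metastasis. All PDAC libraries were above all BC libraries, and within each model the metastases were above the primaries. G6pdx, which opens the pathway, was at 40.6 and 27.3 in BC primaries, 29.0 and 33.6 in BC lung metastases, 4.26 and 0.0207 in PDAC primaries, 7.89 and 108 in the PDAC liver metastases, with 43.8 in the PDAC lung metastasis. The PDAC primaries were the lowest libraries for it. Pgd, the next dehydrogenase, and Tkt, transketolase, were each highest in PDAC liver metastasis 5, at 76.7 and 132, against 8.03 to 35.5 and 32.4 to 66.1 elsewhere. Me1, malic enzyme, was at 6.87 to 12.8 in 6 libraries, and at 0, 0.745 and 0 in BC lung metastasis 6, PDAC liver metastasis 5 and the PDAC lung metastasis.

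The NRF2 targets of detoxification and export were low apart from Osgin1, an oxidative stress response gene, at 2.77 to 83.9 RPKM. Nqo1, the quinone reductase often read as an NRF2 reporter, was at 14.6 and 4.52 in BC primaries, 11.2 and 0 in BC lung metastases, 5.95 and 0 in PDAC primaries, 27.1 and 11.2 in the PDAC liver metastases, with 0 in the PDAC lung metastasis. Its zeros fell in the 3 libraries with fewest genes detected. Cbr3, a carbonyl reductase, was at or below 2.76 in 8 libraries and 18.8 in PDAC liver metastasis 5. The exporters Abcc1 and Abcc4 and the oxidase Aox1 were at or below 2.76 in all 9 libraries.

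**Figure D3:**
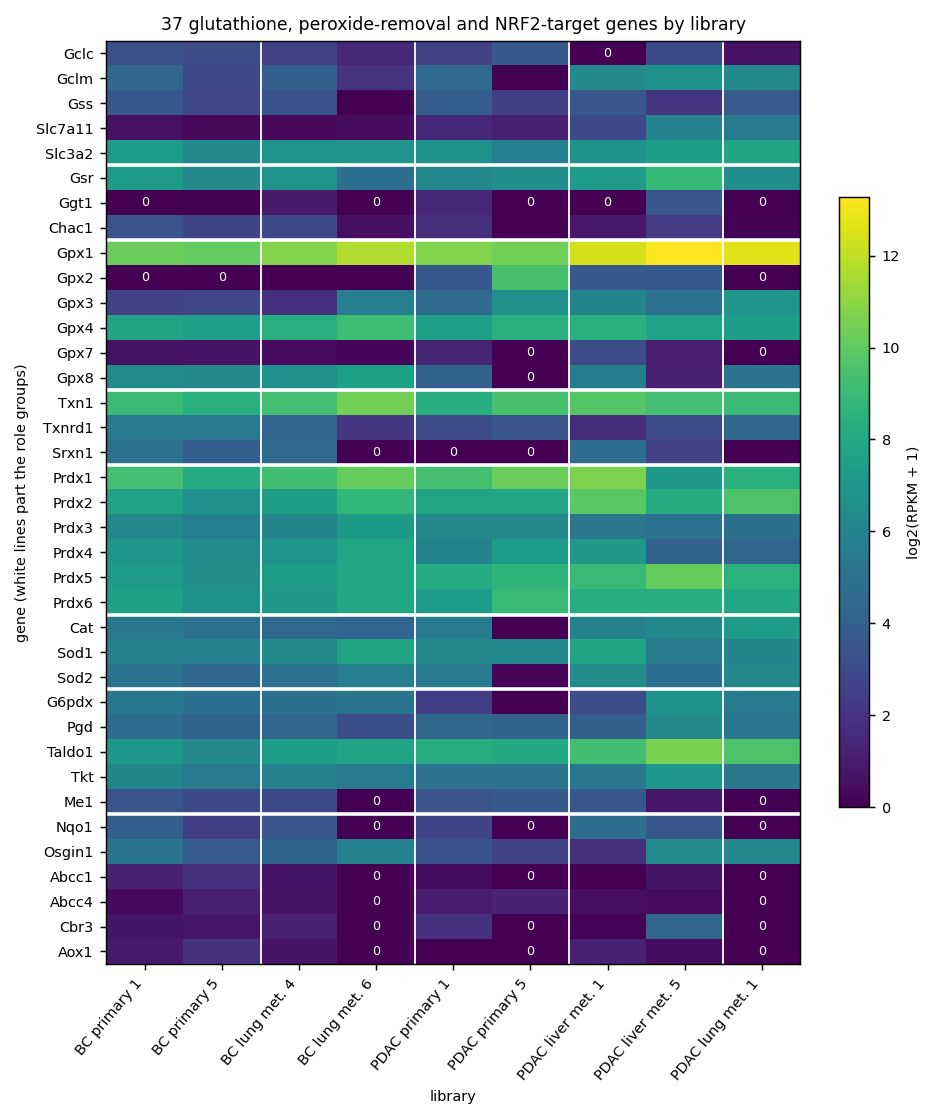
Level of the 37 members, log2(RPKM + 1) as colour, in the 9 libraries (columns); white lines part the role groups and the model and site groups, and 0 marks a gene listed at 0. Gpx1 is the brightest row in all 9 libraries, and most zeros fall in BC lung metastasis 6, PDAC primary 5 and the PDAC lung metastasis.

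For the tests, differences are on the log2(RPKM + 1) scale, which understates the change of low genes, and adjusted p-values come from limma over all 12832 genes with Benjamini-Hochberg adjustment, two-sided, at a threshold of 0.05. They measure the spread between these libraries, which may be technical for BC. The main fits treated all libraries as independent, although the PDAC libraries came from PDAC numbers 1 and 5 alone. The comparisons share libraries with each other: both PDAC site comparisons use the same primaries, and the comparisons over both models reuse all of them.

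In the BC model, no member passed the test between lung metastases and primaries. None of the 37 was called in either direction, where 0% of all genes were, and 0 members had an unadjusted p under 0.05, against 0.881% of all genes higher and 1.18% lower. The smallest adjusted p among them was 0.974. The median member difference was -0.08, against -0.29 over all genes tested. All 6 peroxiredoxins had positive fitted differences (median 0.68), where 35.6% of all genes had a positive and 63.1% a negative one, as did 5 of 6 glutathione peroxidases (median 0.89), while 1 of 5 synthesis genes and 1 of 6 detoxification genes did. The positive peroxiredoxin differences came largely from BC lung metastasis 6, a library with few genes detected, where all 6 were above both primaries. In BC lung metastasis 4 only Prdx5 was above both, and Prdx1, Prdx2, Prdx3, Prdx4 and Prdx6 lay between the primaries. Rescaled without haemoglobin, 5 of 6 peroxiredoxins were positive with a median of 0.20, and under quantile scaling also 5 of 6 with a median of 0.20. Values stood apart, with both metastases on one side of both primaries, for 8 members higher (15.8% of all genes) and 7 lower (27%). The higher ones averaging at least 5 RPKM in the metastases were Gpx1 at 1.09 ± 0.49 (SE, 2 against 2 libraries), Gpx4 at 1.11 ± 0.61, Txn1 at 1.16 ± 0.61, Sod1 at 1.24 ± 0.84, Taldo1 at 0.92 ± 0.62, Prdx5 at 0.69 ± 0.60 and Gpx8 at 0.77 ± 1.56, and the other was Gpx2 at its trace level. The lower ones included Txnrd1 at -2.29 ± 1.11, Me1 at -1.72 ± 1.35, Gclc at -1.17 ± 1.23 and Cat at -0.70 ± 1.44. With values as a share of the sum without haemoglobin, 6 members stood higher and 12 lower, with no share of all genes computed on that scale. The BC lung metastases also held more neutrophil marker RNA, at 0.646% and 0.282% of the summed RPKM against 0.00759% and 0.00994% in primaries. Their lung epithelium markers were at 0.00808% and 0.00545% against 0.000258% and 0.000330%. The part of these cells in the member values was not tested.

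In the PDAC model, liver metastases had higher values than primaries for Gpx1, the modifier subunit Gclm, the cystine importer Slc7a11 and the pentose phosphate genes G6pdx and Taldo1, with none past the adjusted threshold. No member was called, where 0.00779% of all genes were higher and 0% lower. At an unadjusted p under 0.05, 6 members (16.2%) were higher against 4.89% of all genes, and 0 were lower against 1.5%. Gpx1 differed by 2.25 ± 0.49 (SE, 2 against 2 libraries, limma adjusted p = 0.233) and Taldo1 by 1.71 ± 0.62 (limma adjusted p = 0.592). Gclm differed by 4.20 ± 1.44 (limma adjusted p = 0.554), G6pdx by 3.75 ± 1.29 (0.555) and Slc7a11 by 3.06 ± 1.17 (0.636). Srxn1, the other of the 6, was listed at 0 in both primaries. Values stood apart for 13 members higher (35.1%, against 15.4% of all genes) and 3 lower (8.11%, against 10.2%). As a share of the sum without haemoglobin, 10 stood higher and 6 lower, and Cat, Prdx2 and Tkt no longer stood apart. The share of all genes was not computed on that scale. The median member difference was 0.87, against 0.08 over all genes, where 53.9% were positive and 45.4% negative.

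Much of the size of these differences came from PDAC number 5. Taken within a number, liver metastasis minus primary was 1.65 in number 1 and 2.85 in number 5 for Gpx1, 1.77 and 6.64 for Gclm, 1.37 and 4.74 for Slc7a11, 0.76 and 6.73 for G6pdx and 0.26 and 6.11 for Cat. For these 5 genes both liver metastases were above both primaries in RPKM, so the sign had to be the same in both numbers. The difference was larger in number 5 for each. Prdx1 went opposite ways, at 1.32 and -3.05. Over the 37 members, 16 were positive and 5 negative in both numbers, with no share over all genes computed. These include the 13 higher and 3 lower members whose values stood apart, for which the sign was fixed. Primary 5 had few genes detected, and liver metastasis 5 had 21.9% neutrophil markers and little epithelial marker expression. Without PDAC primary 1, PDAC primary 5 stood alone, and its spread was taken from the other groups. Limma then called 4 of 36 members tested higher (11.1%, against 6.24% of all genes), namely G6pdx, Gclm, Sod2 and Cat by 4.93, 6.46, 5.45 and 5.95. It called 1 lower (2.78%, against 2.17%), Gpx2 at -5.63.

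Other members named in this comparison were Cat at 3.19 ± 1.44, Gsr at 1.77 ± 0.84 and Nqo1 at 2.81 ± 1.48 on the positive side, and Prdx3 at -1.14 ± 0.69 and Txnrd1 at -0.87 ± 1.11 on the negative side. None of these had an unadjusted p under 0.05.

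**Figure D4:**
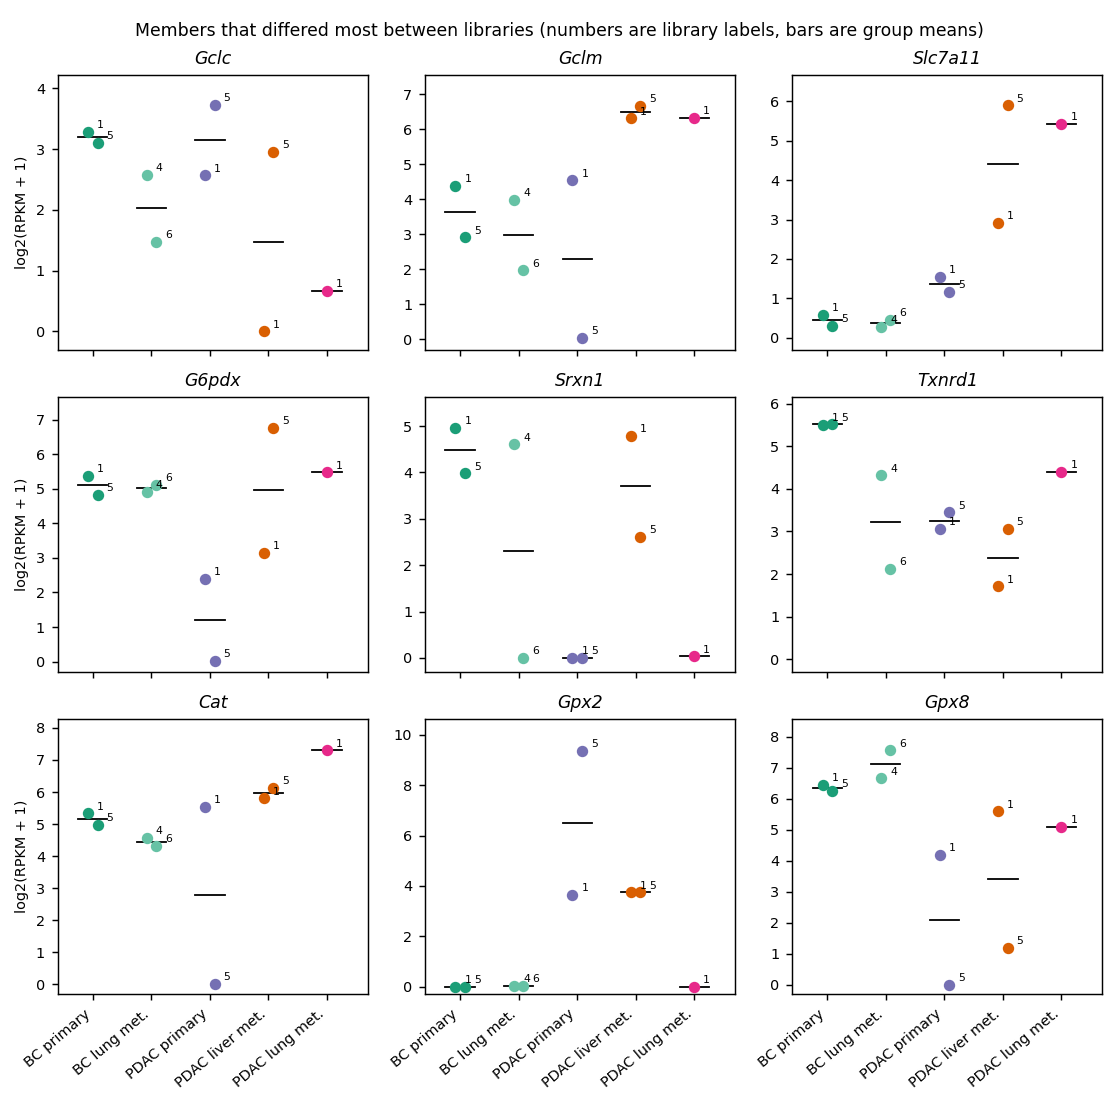
Level of 9 chosen members that varied between libraries, log2(RPKM + 1), by group. Points are libraries with their label number and bars are group means. Other members with a wide range, such as Sod2 at 0.184 to 91.6 RPKM, are not shown. Gclm, Slc7a11 and Cat are higher in the 3 PDAC metastases than in both PDAC primaries, and PDAC primary 5 lies near 0 for Gclm, G6pdx and Cat.

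The PDAC lung metastasis, 1 library, was set against the same primaries as the liver metastases. No member was called, where 0.171% of all genes were higher and 0.413% lower. At an unadjusted p under 0.05, 5 members were higher (13.5%, against 5.78%), and 1 was lower (2.7%, against 7.97%). The higher 5 were Cat at 4.52 ± 1.76 (limma adjusted p = 0.289), G6pdx at 4.27 ± 1.57 (0.265), Slc7a11 at 4.07 ± 1.43 (0.245), Gclm at 4.05 ± 1.76 (0.347) and Gpx1 at 2.09 ± 0.60 (0.154). The lower one was Gpx2, listed at 0 in the lung metastasis (limma adjusted p = 0.175). The lone library is assumed here to vary like the others. Values stood apart for 17 members higher (45.9%, against 23.9%) and 9 lower (24.3%, against 34.4%). As a share of the sum without haemoglobin, 14 stood higher and 10 lower, with no share of all genes computed. Sod2 at 3.41 ± 1.77, Osgin1 at 3.12 ± 1.68 and Gpx8 at 3.00 ± 1.91 were on the positive side. Gclc at -2.48 ± 1.51, Prdx4 at -2.33 ± 1.20, Prdx1 at -1.36 ± 1.19, Prdx3 at -1.32 ± 0.85, Gpx4 at -0.48 ± 0.74 and Sod1 at -0.17 ± 1.03 were on the negative side, and Me1 was listed at 0 in the lung metastasis. The median member difference was 0.04, against -0.50 over all genes. Without PDAC primary 1, which leaves 1 library against PDAC primary 5 alone, 4 members were called higher (11.1%, against 6.41% of all genes) and 1 lower (2.78%, against 6.19%). They were the 5 called in liver under that setting, which rests on the same single primary.

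**Figure D5:**
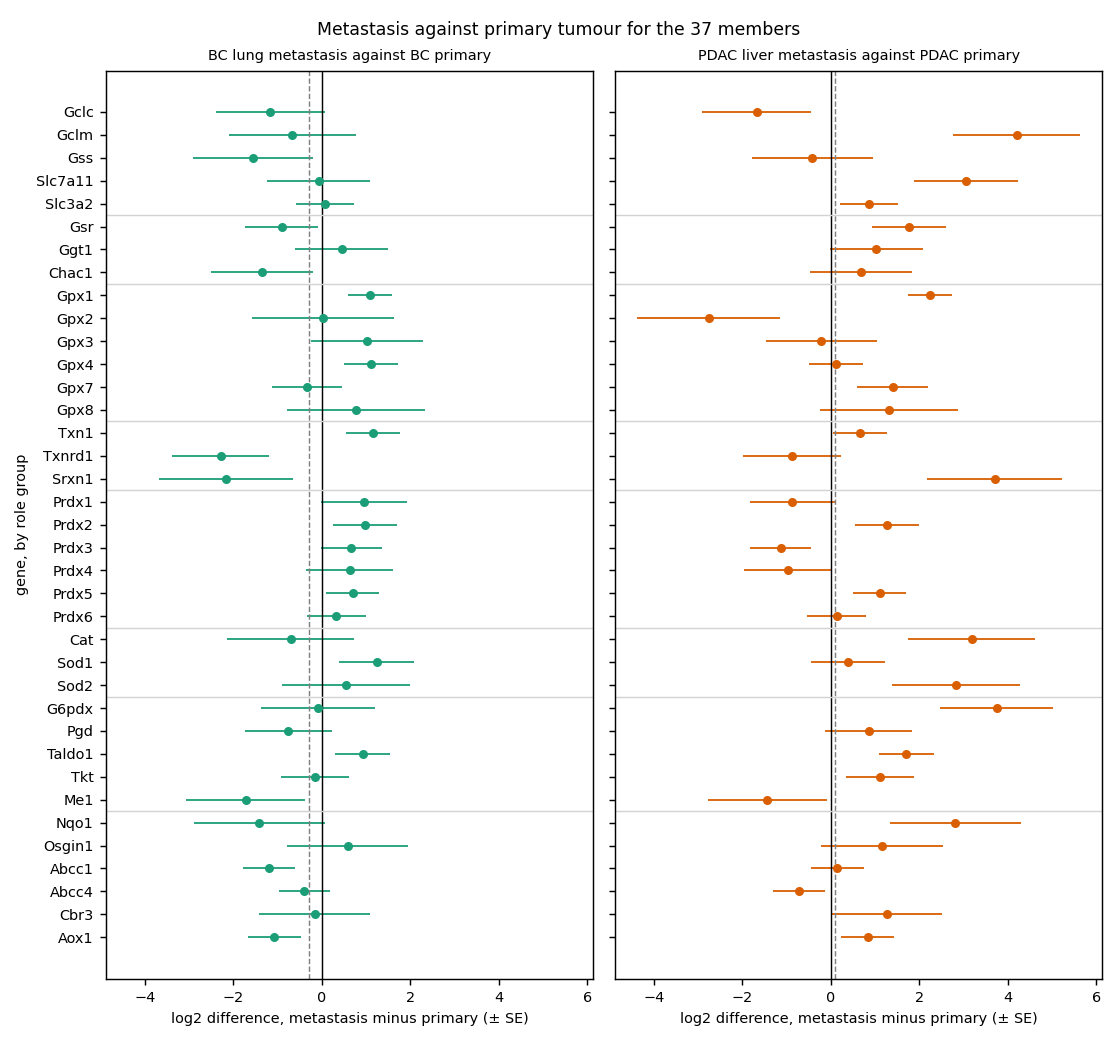
Metastasis minus primary, as log2 difference with its standard error, for the 37 members in BC (lung, 2 against 2 libraries) and PDAC (liver, 2 against 2 libraries); the dashed line is the median over all genes. No member passed the adjusted threshold, and the peroxiredoxins are all right of 0 in BC and split 3 to 3 in PDAC liver (5 of 6 and 2 of 6 positive when rescaled without haemoglobin). Among them only Prdx5 had both BC lung metastases above both BC primaries.

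Over both models together, 5 metastasis libraries against 4 primaries with the model as a term, Gpx1 was the member with the most regular difference, at 1.69 ± 0.33 (limma adjusted p = 0.274), and higher in 5 of 5 metastases than in all primaries. No member was called, where 0.00779% of all genes were higher and 0% lower. Gpx1 was the only member whose groups did not overlap (2.7%, against 0.366% of all genes higher and 0.538% lower). Taldo1 differed by 1.29 ± 0.40 and Prdx2 by 1.23 ± 0.46, both with a limma adjusted p of 0.853, and Me1 by -1.97 ± 0.93. Gpx1, Taldo1 and Prdx2 were the members with an unadjusted p under 0.05 (8.11%, against 2.19% of all genes). The median member difference was 0.36, against -0.16 over all genes. Gpx1 ranged from 0.70 to 1.96 over 15 alternative settings, with 0.70 under quantile scaling, and its limma adjusted p from 0.134 to 1.000.

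The difference of the metastasis effects, PDAC liver minus BC lung, was not past the threshold for any member, where 0% of all genes were. At an unadjusted p under 0.05 were Srxn1, listed at 0 in both PDAC primaries (limma adjusted p = 0.874), Gclm at 4.87 ± 2.03 and Gsr at 2.68 ± 1.18 (8.11% of members, against 3.34% of all genes higher), and 0 members were lower, against 0.787%. Aox1 was at 1.90 ± 0.86.

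Between the models, over both sites, Taldo1 was the single member past the adjusted threshold. It was higher in PDAC by 1.90 ± 0.40 (limma adjusted p = 0.0243, 5 against 4 libraries), and in 5 of 5 PDAC libraries. These PDAC libraries came from PDAC numbers 1 and 5 alone, and the BC libraries from 1 cell line. The fit treated the libraries as independent, and no replicate block was fitted for this comparison. Of all genes 1.13% were called higher and 1.84% lower. Over 14 alternatives the difference was 1.38 to 2.12 and the limma adjusted p 0.0193 to 0.127. The call was lost without BC primary 5 (0.0724), without BC lung metastasis 4 (0.127), without PDAC primary 1 (0.0601), without the 3 libraries with fewest genes (0.0555) and with no filter on low values (0.0704). Prdx5 at 1.55 ± 0.42 (limma adjusted p = 0.0684) and Slc7a11 at 2.80 ± 0.91 (0.126) also did not overlap, as did Gpx8 at -3.65 ± 1.03 (0.0837). That made 3 members higher (8.11%, against 2.72%) and 1 lower (2.7%, against 6.23%). Gpx2 at 4.31 ± 1.29 (0.103), Gpx3 at 2.52 ± 0.86 (0.138) and Gpx1 at 1.04 ± 0.33 (0.118) overlapped. In all, 6 members were higher at an unadjusted p under 0.05 (16.2%, against 7.74%) and 1 lower (2.7%, against 12.1%). The median member difference was -0.01, against -0.21 over all genes. Macrophage markers also split by model, at 0.181% to 1.46% of the summed RPKM in PDAC and 0.0410% to 0.145% in BC. The part of these cells in the member values was not tested.

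Between the primaries alone, no member was called, where 0.0312% of all genes were higher and 0% lower. At an unadjusted p under 0.05, 4 members were higher in PDAC (10.8%, against 3.76%), namely Gpx2, Gpx3, Taldo1 and Prdx5, and 5 were lower (13.5%, against 9.43%), namely G6pdx, Srxn1, Gpx8, Abcc1 and Aox1. Gpx3 differed by 2.93 ± 1.26, Taldo1 by 1.53 ± 0.62 and Prdx5 by 1.53 ± 0.60, while G6pdx differed by -3.89 ± 1.29 (limma adjusted p = 0.269) and Gpx8 by -4.25 ± 1.56 (0.300). Gpx2 was listed at 0 in both BC primaries, and Srxn1 in both PDAC primaries. Among the others that stood apart, Prdx1 was at 1.01 ± 0.97, Prdx2 at 0.65 ± 0.73, Gpx1 at 0.44 ± 0.49, Me1 at 0.43 ± 1.35, Txnrd1 at -2.26 ± 1.11, Chac1 at -2.18 ± 1.15, Osgin1 at -1.46 ± 1.38 and Tkt at -0.69 ± 0.77. The split depended on scaling: 11 members stood apart higher and 9 lower in RPKM (15.7% and 31.5% of all genes), but 5 higher and 15 lower as a share without haemoglobin. On that second scale the share of all genes was not computed. Gpx1 changed sign, at -0.12 with values rescaled without haemoglobin and -0.43 under quantile scaling. Without PDAC primary 1, limma called Gpx2 higher (2.78% of members, against 2.15% of all genes) and G6pdx, Gpx8, Sod2 and Cat lower (11.1%, against 4.39%).

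The regulators and related genes of the pathway gave few calls. Nfe2l2, which encodes NRF2, showed 34.4 and 24.5 RPKM for BC primaries, 30.2 and 5.75 for BC lung metastases, 25.0 and 46.9 for PDAC primaries, 27.8 and 74.8 for liver metastases and 28.7 for the lung metastasis. BC lung metastasis 6 was the lowest library and PDAC liver metastasis 5 the highest. Keap1, which marks NRF2 for degradation, showed 23.1 and 25.2 for BC primaries, 27.2 and 28.4 for BC lung metastases, 13.5 and 0.0286 for PDAC primaries, 2.67 and 7.95 for liver metastases and 0 for the lung metastasis. All PDAC libraries were below all BC libraries, at -2.96 ± 0.96 (limma adjusted p = 0.126). Hmox1, the haem-degrading target of NRF2, showed 11.4 and 3.69 for BC primaries, 7.01 and 0 for BC lung metastases, 12.0 and 46.9 for PDAC primaries, 6.29 and 30.5 for liver metastases and 0 for the lung metastasis, so that its groups overlapped. Bach1, a repressor at NRF2 sites, stayed at or below 4.14 in all 9 libraries and was listed at 0 in the 3 with fewest genes. Of the 11 NRF2 regulators, 14 other NRF2 targets, 21 other glutathione and thioredoxin genes, 13 genes of cysteine, NADPH and one-carbon supply and 10 ATF4 targets tested, none was called in any comparison of metastasis with primary. The genes below had the smallest p of their list in the comparison given. Fth1, the ferritin heavy chain, differed by 1.51 ± 0.47 between BC lung metastases and primaries (limma adjusted p = 0.974) and stood apart. Cebpb, a stress and inflammation transcription factor, differed by 2.62 ± 0.68 in PDAC liver (limma adjusted p = 0.340) and 3.30 ± 0.84 in PDAC lung (0.111). Sod3, the extracellular superoxide dismutase, differed by 6.12 ± 1.30 in PDAC lung. It was at 0.00595 and 0 RPKM in PDAC primaries 1 and 5 and at 68.7 in the lone PDAC lung metastasis library. The aldo-keto reductase gene Akr1b8 was listed at 0 there (limma adjusted p = 0.0944).

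Between the models, over both sites, 3 of the 69 tested genes of these lists were called higher in PDAC (4.35%, against 1.13% of all genes). In the other direction 0 were called lower (against 1.84%). The 3 came from the lists of other NRF2 targets and of other glutathione and thioredoxin genes. Sepp1 (Selenop), a secreted carrier of selenium, the element on which Gpx1 and Gpx4 depend, rose by 3.78 ± 0.63 (limma adjusted p = 0.00648), from 5.86 to 20.5 RPKM in BC to 84.2 to 412 in PDAC. Blvrb, a biliverdin and flavin reductase abundant in red cells, rose by 2.57 ± 0.55 (limma adjusted p = 0.0250), at 9.89 to 52.1 in BC and 46.0 to 296 in PDAC. Sepx1 (Msrb1), a selenium-containing methionine sulfoxide reductase, rose by 2.41 ± 0.59 (limma adjusted p = 0.0461), at 5.75 to 39.5 in BC and 34.6 to 505 in PDAC. Over 14 alternatives, none with the replicate block, Sepp1 stayed past the threshold (limma adjusted p 0.00599 to 0.0353). Blvrb lost the call when values were rescaled without haemoglobin (0.0552), with no filter (0.0673) and without BC primary 1 (0.0534), BC primary 5 (0.0680), BC lung metastasis 4 (0.132), PDAC primary 1 (0.0601), PDAC liver metastasis 1 (0.0623) or the PDAC lung metastasis (0.0520). Sepx1 lost it when rescaled (0.0769), at pseudocount 0.1 (0.0574), with no filter (0.111) and without any library but PDAC primary 5, up to 0.195 without BC lung metastasis 4. Blvrb was highest in the PDAC lung metastasis and liver metastasis 1, which had the most haemoglobin, and Sepx1 in liver metastasis 5, which had the most neutrophil marker expression. Sepp1 was highest in PDAC liver metastasis 1, where macrophage markers took 1.16% of the summed RPKM, against 0.0410% to 0.145% in BC. Within PDAC it was at 94.0 RPKM in liver metastasis 5, with 1.36%, and at 156 in primary 5, with 0.181%. The part of other cells in these values was not tested.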

How the data were processed

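RNA from sorted tumour cells was extracted with RNAqueous-Micro and made into libraries with SMART-seq v4 and Nextera XT, per the labels' protocols. The submitters' processing notes name the build mm9. No aligner or counter is named in the sources used here. The authors deposited RPKM values, reads scaled to gene length and depth, in 1 table of 23799 genes in 9 libraries, of which 166 genes were 0 throughout. The table is named as CPM, but the columns sum to 288171 to 992077, and values under 20 reads times gene length gave whole reads in 62.8% to 74.4% of cases, within 0.02, against 4.64% to 5.52% for values alone (93.0% of genes had a GENCODE M21 length). Depth was estimated from these steps, so counts were not tested.

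Genes at 1 RPKM or more in at least 2 libraries (12832) were fitted on log2(RPKM + 1) with limma 3.58.1 and statmod 1.5.0 in R 4.3.3 (trend, robust), with 4 residual degrees of freedom for group means and 6 for model plus site, in 7 comparisons. The procedure was tested on simulated data. Members and gene lists were chosen with earlier results of these data known. The text names members past the threshold, up to 8 per direction with the largest difference where groups stood apart and the higher one had a mean of 5 RPKM or more, and otherwise the 4 with the smallest p. Of other pathway genes it names those past the threshold and at most 3 per list by p. PDAC numbers mark matched samples, from the design text, with a correlation of deviations of -0.165. In GENCODE M21, 6 members (G6pdx, Gclm, Gss, Me1, Prdx2 and Prdx5) share exon bases with another gene of the table, up to 19.1% for Prdx5. How shared reads or strand were counted is unknown here, so these values are uncertain. Promoters come from RefSeq, GRCm38.p6. No sequencing batch is labelled. Part of the PDAC genotype is not reported here. Shares of the summed RPKM without haemoglobin were added as a second scale for the levels after the data were seen.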

Additional observations from a re-analysis of the deposited data

How the results depend on the processing

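Alternatives were another pseudocount (0.1), no filter, rescaling without haemoglobin, quantile scaling, a replicate block, libraries of 1 model only, leaving out each library, and leaving out the 3 libraries with fewest genes. Rescaling moved the median of all genes from -0.29 to -0.66 for BC lung metastasis and from -0.21 to -0.61 for PDAC against BC. Of 971 alternatives for 67 named results, 967 kept their direction. The 4 reversals were between the primaries: Gpx1 (-0.12 rescaled, -0.43 under quantile scaling), Me1 (-0.074 rescaled) and Prdx2 (-0.0033 under quantile scaling). The cause was not tested.

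Called genes depended on the setting. For BC lung metastasis they went from 0 to 73 with BC libraries only. For PDAC liver metastasis they went from 1 to 0 at pseudocount 0.1, with no filter, rescaled, under quantile scaling, with the replicate block, with PDAC libraries only and without the 3 libraries. For PDAC lung metastasis 75 became 270 at pseudocount 0.1, 251 with no filter, 161 under quantile scaling, 0 with the replicate block and 1 with PDAC libraries only. Over both models 1 became 0 at pseudocount 0.1, with no filter, rescaled, with the replicate block and without the 3 libraries, and 6 under quantile scaling. For PDAC against BC 381 became 207 with no filter and 1145 without the 3 libraries. For the primaries 4 became 0 with no filter, 13 under quantile scaling and 72 without the 3 libraries. Members called for PDAC against BC went from 1 to 0 with no filter (Taldo1, limma adjusted p = 0.0704) and to 3 without the 3 libraries. Of these, Gpx3 and Gpx2 were higher (5.41%, against 4.84% of all genes) and Txnrd1 lower (2.7%, against 4.5%). No member was called with the replicate block in the comparisons within PDAC. The block was not fitted for PDAC against BC or for the primaries.

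Leaving out 1 library at a time gave 0 to 0 genes called for BC lung metastasis, 0 to 1032 for PDAC liver, 0 to 1547 for PDAC lung, 0 to 10 over both models, 153 to 818 for PDAC against BC, 1 to 803 for the primaries and 0 to 30 for the difference of effects. Members called ranged from 0 to 5 for PDAC liver, 0 to 5 for PDAC lung, 0 to 2 for PDAC against BC, 0 to 5 for the primaries, 0 to 1 for the difference of effects (Cat, without PDAC primary 1) and 0 to 0 for BC lung and for both models.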
